A study of Homo sapiens with 6 samples.

Results

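The small interferon-induced genes IFI6, IFI27, IFI27L1 and IFI27L2 make up the FAM14 family, and all 4 were found by symbol among 27328 loci with expression values. Of the 27328 loci, 12064 passed a filter on low values (at least 1 FPKM in at least 3 of 6 libraries), and all 4 members were among them. FPKM scales fragments by gene length and by library size. The gene lengths used are not given, so levels, ranks and shares compared between genes depend on lengths that are unknown here. The values came from SACC-83, an established human cell line labelled as salivary adenoid cystic carcinoma. One group of 3 libraries carried a vector control and has the genotype label WT. The other group of 3 overexpressed circMYBL1, a circular RNA named after the gene MYBL1, and has titles that begin with OE. For these libraries the genotype label reads circMYBL1, circMYBL2 and circMYBL3 for numbers 1, 2 and 3, so that they are replicates of one condition rests on the titles and the design text. Neither the vector backbone nor whether a line was a clone or a pool is stated. Its purpose, as stated, was a search for targets of circMYBL1.

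Type I interferons bind a receptor that activates the kinases JAK1 and TYK2. Their signal leads to assembly of the complex ISGF3, which holds IRF9 as a DNA-binding subunit and binds the interferon-stimulated response element (ISRE) near the start of its target genes. IFI6 and IFI27 are well-known targets of this pathway. Both encode small, strongly hydrophobic membrane proteins. IFI6 has been placed in mitochondria and the endoplasmic reticulum and linked to resistance to apoptosis and to flaviviruses, and IFI27 has been placed in mitochondria and the nuclear envelope. IFI27L1 and IFI27L2 are less studied relatives of IFI27.

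The family was picked for description because the differences of IFI6 and IFI27 between OE and vector libraries in these same data were already known. Those differences are therefore given as values without a test. Tests are given for replicate number, which played no part in the choice, and for genes outside the family. Among the latter, the interferon lists were also chosen with earlier results of these data known. Their counts and p-values are therefore no independent support.

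IFI6 lies alone on chromosome 1, while the other 3 members are neighbours on chromosome 14. In GENCODE release 29 on GRCh38, IFI6 (ENSG00000126709) spans chromosome 1, 27666061 to 27672218, on the minus strand. IFI27L1 (ENSG00000165948) spans chromosome 14, 94081282 to 94103846, on the plus strand. IFI27 (ENSG00000165949) follows 990 bases further on at 94104836 to 94116698, also on the plus strand. IFI27L2 (ENSG00000119632) lies at 94127779 to 94130253 on the minus strand. No exon of a member shares a base with an exon of another annotated gene, although the antisense gene AL445490.1 spans part of IFI6 on the other strand. The transcripts of IFI27 and IFI27L2 have 1 stretch of 31 bases in common on the same or opposite strand, and no other pair of members shares one. Stretches of 31 bases that also occur in a transcript of any other gene made up 1.70% of those of IFI6, 3.53% of IFI27, 1.17% of IFI27L2 and 0 of 2600 for IFI27L1. The exact sequence that the members share with each other or with other genes is thus a small part of their transcripts.

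The sequence before the gene start differed between IFI6 and IFI27 on one side and IFI27L1 and IFI27L2 on the other. The sequences show the stretch before each start, up to the first annotated untranslated exon base, because that is where the ISRE of interferon targets is usually found. They are from RefSeq on GRCh38.p14, written in the direction of the gene, and capitals mark each match on either strand to the ISRE core, which is GAAA, any 2 bases and GAAA again. IFI6 is at chr1:27672219-27672442 (minus strand), IFI27 at chr14:94110486-94110677 (plus strand) and IFI27L2 at chr14:94129665-94129854 (minus strand). The stretches of IFI27 and IFI27L2 lie before RefSeq starts that are inside the GENCODE spans given above.
IFI6: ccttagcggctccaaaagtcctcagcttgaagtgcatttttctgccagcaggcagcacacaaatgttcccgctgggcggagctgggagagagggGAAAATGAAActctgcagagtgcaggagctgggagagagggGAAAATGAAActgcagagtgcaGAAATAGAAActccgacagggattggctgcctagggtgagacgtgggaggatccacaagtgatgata
IFI27: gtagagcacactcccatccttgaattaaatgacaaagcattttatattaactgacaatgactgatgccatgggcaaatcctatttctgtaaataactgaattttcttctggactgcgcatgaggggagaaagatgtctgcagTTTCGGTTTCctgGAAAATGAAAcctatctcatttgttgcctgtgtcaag
IFI27L2: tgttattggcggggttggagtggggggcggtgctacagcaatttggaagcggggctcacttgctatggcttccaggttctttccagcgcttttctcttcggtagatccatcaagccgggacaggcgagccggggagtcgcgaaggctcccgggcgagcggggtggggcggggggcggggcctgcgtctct

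In the 250 bases before the RefSeq start, IFI6 held 3 matches to the ISRE core, beginning 156, 115 and 93 bases before the start. The first 2 lie in an exact repeat of 29 bases whose copies begin 41 bases apart. IFI27 held 2 matches, 1 in the direction of the gene beginning 95 bases before the first of its 2 RefSeq starts and 1 on the opposite strand at 108 bases. IFI27L1 and IFI27L2 held 0 matches in the same window. The window of IFI27L1 overlaps the first exon of its neighbour DDX24 and is not printed. Of 27305 genes with a promoter sequence, 3.71% held at least 1 match, 75 held at least 2 and 8 held at least 3. A further interferon-related element, TTCNNNGAA, which reads the same on both strands, occurred 1 time in IFI27 as TTCCTGGAA, overlapping both marked matches. It occurred in no other member and in 8.09% of genes. A match of letters is a description and does not show binding in these cells.

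The host gene MYBL1 checks the labels. MYBL1 read 9.04, 7.15 and 10.3 FPKM in vector libraries 1, 2 and 3 and 359, 44.0 and 2025 FPKM in OE libraries 1, 2 and 3. Each OE library was thus above every vector library, with a wide spread among the OE libraries. This value was not split here into reads of the linear RNA, the circular RNA and the construct. The libraries also differed by replicate number: deviations from the group mean correlated at 0.725, 0.881 and 0.529 across genes between libraries of equal number 1, 2 and 3. Libraries numbered 1 and 3 also correlated across the groups (0.424 and 0.412), while number 2 correlated negatively with both (-0.818 to -0.552). Deviations from a group mean cancel out for each gene, so negative values between unlike numbers are partly built in. Because libraries of equal number correlated, each comparison of the groups was also fitted with number as a block. Of 8 epithelial markers, 7 read at least 8.61 FPKM in every library (EPCAM 76.3 to 88.5, KRT8 741 to 1123), and KRT19 read 0.243 to 1.10 FPKM. TP63 read 11.7 to 33.7 FPKM. Of the other salivary adenoid cystic markers, KIT was listed at 0 in every library, SOX10 stayed under 1 FPKM, MYB between 0.688 and 1.21 and NFIB between 0.932 and 2.44 FPKM. Of the leukocyte markers PTPRC, CD3E and LYZ were listed at 0 in every library and CD68 alone passed 1 FPKM. The summed leukocyte markers ranged from 7.51 to 8.30 FPKM in vector and from 6.91 to 11.4 in OE libraries. Of the fibroblast markers COL1A1 alone passed 1 FPKM (2.95 to 11.1), and of the endothelial markers PECAM1 alone (0.027 to 1.27). The fibroblast sum was 4.05 to 11.2 FPKM in vector and 3.07 to 8.88 in OE libraries. The epithelial sum was 2061 to 2272 FPKM in vector and 2169 to 2686 in OE libraries. The part of these markers in the differences between the groups was not tested.

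IFI6 was the highest member in every library. IFI6 read 103, 81.9 and 60.4 FPKM in vector libraries 1, 2 and 3 and 576, 364 and 298 FPKM in OE libraries 1, 2 and 3. Every OE library was above every vector library, and in both groups library 1 was the highest and library 3 the lowest. The group means were 81.7 ± 21.3 and 413 ± 146 FPKM (SD, n = 3), a ratio of 5.05. Within the pairs of equal number the OE library was 5.60, 4.44 and 4.93 times as high. On the scale of log2(FPKM + 1), the mean difference of IFI6 was 2.30, and 3 of 12064 genes had a larger one.

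IFI27 differed by a larger factor from a lower vector level. IFI27 read 51.6, 22.7 and 16.4 FPKM in vector libraries 1, 2 and 3 and 305, 211 and 182 FPKM in OE libraries 1, 2 and 3. The groups did not overlap, and the order of the libraries within each group was that of IFI6. The group means were 30.2 ± 18.8 and 233 ± 64.2 FPKM (SD, n = 3), a ratio of 7.72. Within the pairs the OE library was 5.92, 9.33 and 11.1 times as high, so that the pair with the lowest vector level had the highest ratio. The mean log2 difference of IFI27 was 3.04, and 1 of 12064 genes had a larger one.

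IFI27L1, next to IFI27 on the chromosome, did not separate the groups. It read 11.6, 20.5 and 11.2 FPKM in vector libraries 1, 2 and 3 and 15.1, 19.0 and 11.8 FPKM in OE libraries. The ranges overlapped, and library 2 was the highest in both groups. The means were 14.4 ± 5.23 and 15.3 ± 3.61 FPKM, and the OE library was higher in 2 of 3 pairs (ratios 1.30, 0.930 and 1.06). The log2 difference of 0.11 was smaller than the spread between libraries of a group (pooled SD 0.40), and it turned to -0.010, -0.038 and -0.052 without vector library 1, vector library 3 and OE library 2. It was 0.37 without vector library 2 and 0.27 without OE library 3.

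IFI27L2 was the lowest member in every library. It read 4.53, 12.2 and 5.59 FPKM in vector libraries 1, 2 and 3 and 7.95, 12.0 and 6.38 FPKM in OE libraries. The groups overlapped, with library 2 again the highest in both. The means were 7.45 ± 4.17 and 8.78 ± 2.91 FPKM, and the ratios within pairs were 1.75, 0.983 and 1.14. The log2 difference of 0.28 was below the pooled SD of 0.55, and it ranged from 0.03 without vector library 1 to 0.65 without vector library 2 when 1 library at a time was left out; it was also 0.05 without OE library 2, 0.15 without vector library 3 and 0.46 without OE library 3.

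**Figure D1:**
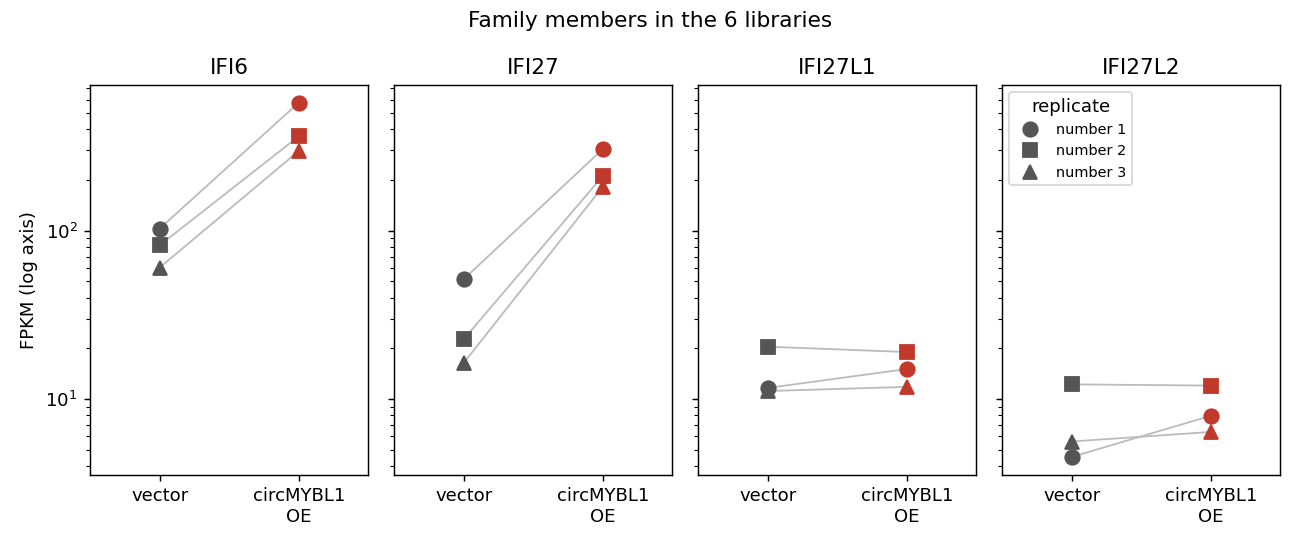
FPKM of IFI6, IFI27, IFI27L1 and IFI27L2 on a log axis in vector (grey) and circMYBL1 overexpression (OE, red) libraries, with 1 point per library, a shape per replicate number and lines joining equal numbers. The 3 OE points of IFI6 (298 to 576) and IFI27 (182 to 305) lie above all vector points, while for IFI27L1 and IFI27L2 the square of number 2 is highest in both groups.

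Thus 2 of the 4 members had OE libraries all above the vector libraries, which 2.5% of the 12064 genes tested also had; 0 members lay the other way, against 0.845% of genes. Since the family was picked on this contrast, nothing is read from that count. In these bulk libraries more expressing cells and more RNA per cell cannot be told apart. The order of MYBL1 levels in the OE libraries was not that of IFI6 and IFI27. OE library 3 had the highest MYBL1 and the lowest IFI6 and IFI27 of the 3. OE library 2, with the lowest MYBL1, lay between the others in IFI6 and IFI27. Within pairs 1, 2 and 3, MYBL1 was 39.7, 6.16 and 197 times as high in the OE library. The pair ratios were 5.60, 4.44 and 4.93 for IFI6 and 5.92, 9.33 and 11.1 for IFI27. A relation to the level of MYBL1 was not tested.

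IFI6 and IFI27 together held a larger share of the family in each OE library than in any vector library. Shares and ratios between members depend on the gene lengths used, which are not given. The summed level of the 4 genes was 171, 137 and 93.5 FPKM in vector libraries 1, 2 and 3 and 905, 606 and 498 FPKM in OE libraries. IFI6 held between 59.7% and 64.6% of it in every library of either group. IFI6 and IFI27 together held 90.5%, 76.2% and 82.1% in the vector libraries and 97.5%, 94.9% and 96.3% in the OE libraries. The level of IFI6 was 1.996, 3.61 and 3.69 times that of IFI27 in vector libraries 1, 2 and 3 and 1.89, 1.72 and 1.63 times in OE libraries. The vector libraries therefore spread more in this ratio than the OE libraries did. IFI27 stood at 4.43, 1.11 and 1.47 times its neighbour IFI27L1 in the vector libraries, and at 20.3, 11.1 and 15.4 times in the OE libraries.

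Ranked by FPKM among the 12064 genes kept, IFI6 stood at places 535, 609 and 1031 in vector libraries 1, 2 and 3 and at 87, 120 and 165 in OE libraries. IFI27 stood at 1254, 2933 and 4066 in the vector libraries and at 188, 215 and 269 in OE libraries. IFI27L1 kept between places 3276 and 5480 over all 6 libraries, and IFI27L2 between 5193 and 8278. IFI6 and IFI27 were thus already expressed in the vector cells, and IFI27L1 and IFI27L2 were expressed at a middle level throughout.

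All 4 members varied with replicate number, which was tested because it was not used to choose them. By limma's F test of number beside group over 12064 genes, the adjusted p was 0.000937 for IFI6, 0.00145 for IFI27, 0.00419 for IFI27L1 and 0.00252 for IFI27L2. Over all genes 46.5% passed the same test, so a call by number is common in these libraries. The members differed in the order of the numbers. For IFI6 and IFI27, number 1 was higher than the mean of numbers 2 and 3 by 0.67 and 1.004 on the log2(FPKM + 1) scale. Number 3 differed from the mean of numbers 1 and 2 by -0.61 and -0.75, and number 2 lay between them, at -0.07 and -0.26 from the mean of the others. For IFI27L1 and IFI27L2, number 2 was higher than the mean of numbers 1 and 3 by 0.64 and 0.91. Without a filter on low values IFI6 still passed (adjusted p = 0.0334), and IFI27 (0.0607), IFI27L1 (0.0546) and IFI27L2 (0.0655) did not. Without vector library 2 the adjusted p of IFI27L1 was 0.0622, where 1 residual degree of freedom remained. Over 7 other settings the adjusted p ranged from 0.000245 to 0.0334 for IFI6, from 0.000515 to 0.0607 for IFI27, from 0.00219 to 0.0546 for IFI27L1 and from 0.00115 to 0.0655 for IFI27L2.

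**Figure D2:**
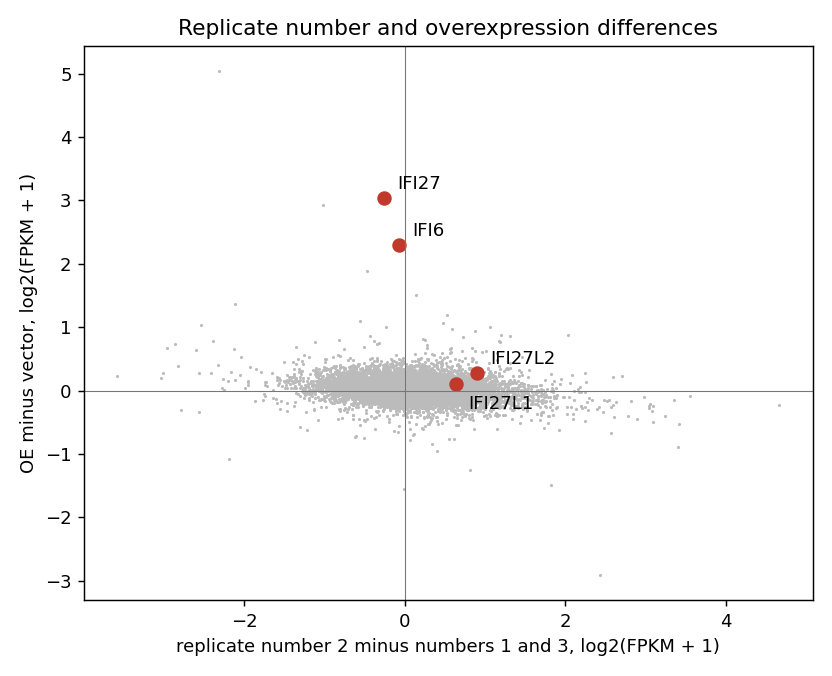
Each grey point is 1 of 12064 genes, with the difference of replicate number 2 from the mean of numbers 1 and 3 on the x axis and the OE minus vector difference on the y axis, both in log2(FPKM + 1), and red points are the 4 members. IFI6 (-0.07, 2.30) and IFI27 (-0.26, 3.04) lie high near the middle, and IFI27L1 (0.64, 0.11) and IFI27L2 (0.91, 0.28) lie to the right within the cloud.

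The genes whose profiles were most like those of the members were ranked by Pearson's r of log2(FPKM + 1) over the 6 libraries, which holds the group difference. They are given as a description with no test. IFI6 and IFI27 correlated at 0.986 with each other. IFI27 stood in place 4 of 11165 genes for IFI6, and IFI6 in place 1 for IFI27. The others among the 5 most alike were YIF1B, MCIDAS, PUS3 and EZH2 for IFI6 (0.982 to 0.993), and NOL3, MCIDAS, UMAD1 and IRF7 for IFI27 (0.970 to 0.979). MCIDAS read 0.878, 0.882 and 0.804 FPKM in vector libraries and 1.10, 1.06 and 1.03 FPKM in OE libraries 1, 2 and 3. It thus passed the filter through the OE libraries alone and close to the limit, so nothing is read from its likeness. Likeness of profile is not likeness of size: YIF1B, a protein of membrane traffic, was 1.28 times as high in OE libraries, and EZH2, a histone methyltransferase, 1.11 times, against 5.05 for IFI6. IRF7, a transcription factor of the interferon system, was 2.15 times as high.

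IFI27L1 and IFI27L2 correlated at 0.964 with each other and at 0.133 to 0.278 with IFI6 and IFI27. The genes most like IFI27L1 were SH3BP2, SERPINB6, TM9SF3, N4BP3 and RTL10 (0.994 to 0.998). The genes most like IFI27L2 were BCL2L11, TNNT1, SDHA, FRMD8 and HS1BP3 (0.996 to 0.999). In these 10 genes library 2 was the highest of its group in both groups, which follows from their choice by likeness. SERPINB6, a protease inhibitor, for example read 47.0, 104 and 45.9 FPKM in vector libraries 1, 2 and 3 and 66.4, 91.8 and 50.7 FPKM in OE libraries.

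The kept chromosomal neighbours outside the family had log2 differences of 0.02 to 0.18 between the groups. Within 100 kb of a member, 4 genes outside the family were kept, AHDC1 and FAM76A beside IFI6, and DDX24 and PPP4R4 beside the IFI27 cluster. By limma 0 of the 4 passed with group alone or with the replicate block, and 0 had an unadjusted p under 0.05 in either fit. DDX24, an RNA helicase gene whose start lies 37 bases from that of IFI27L1 on the opposite strand, read 36.6, 27.6 and 27.7 FPKM in vector and 42.1, 31.5 and 31.2 FPKM in OE libraries 1, 2 and 3. It was 1.15, 1.14 and 1.13 times as high within the pairs (log2 difference 0.18, block adjusted p = 0.719). Like IFI27, and unlike its closer neighbour IFI27L1, DDX24 was highest in library 1 of both groups. The log2 differences of AHDC1, FAM76A and PPP4R4 were 0.13, 0.15 and 0.02. Whether the difference of IFI27 exceeds those of its neighbours was not tested, since IFI27 was picked on this contrast.

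**Figure D3:**
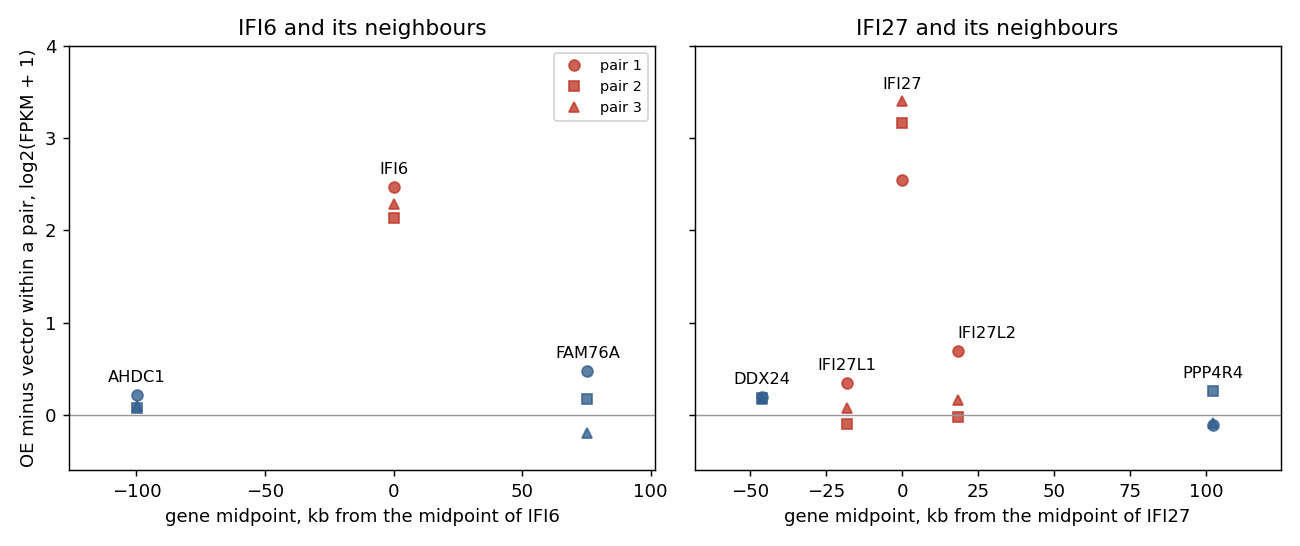
OE minus vector difference in log2(FPKM + 1) within each pair of equally numbered libraries (1 shape per pair), for kept genes within 100 kb, against the distance in kb of the gene midpoint from that of IFI6 (left) or IFI27 (right), with family members in red and other genes in blue. The pairs of IFI6 lie between 2.14 and 2.47 and those of IFI27 between 2.54 and 3.40, while those of the kept genes outside the family lie between -0.19 and 0.48 and those of IFI27L1 and IFI27L2 between -0.10 and 0.69.

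The rest of the interferon pathway was counted on 6 lists that hold none of the 4 members. These lists were chosen with earlier results of these data known, so the shares of all genes stand beside them as background only. Of 98 loci on the lists, 77 were kept. By limma with group alone, 0 of 77 passed at an adjusted p under 0.05, as did 0 of 12064 genes (0% called). An unadjusted p under 0.05 was found for 6 of 77, against 65 of 12064. MYBL1 itself, with a log2 difference of 5.04, did not pass with group alone and passed with the block (limma, adjusted p = 0.0225). The absence of calls with group alone therefore does not show an absence of differences. With the replicate block 3 of the 77 rose and 0 fell, against 0.0912% of all genes higher and 0.00829% lower, and 29 of 77 had an unadjusted p under 0.05 against 868 of 12064. The median log2 difference over the 77 was 0.17, against 0.03 over all genes. Of the 77, 43 were higher in 3 of 3 pairs, which 16.5% of all genes were. IFI6 and IFI27, at 2.30 and 3.04, lay outside the range of these kept genes, which was -0.22 to 1.20. Adding 1 to FPKM shrinks the differences of low genes, and genes under the filter are not in this range. XAF1, an effector under the filter, averaged 0.236 FPKM in vector and 1.07 FPKM in OE libraries, with overlapping ranges. Its ratio of means was 4.55, against 5.05 for IFI6 and 7.72 for IFI27. None of the 3 block calls held when low genes were not filtered out, where 0 genes of the whole table passed.

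Nearly all ligand genes fell under the filter, and no receptor gene passed the test. IFNE, an epithelial interferon, was the only 1 of 10 ligand genes kept, at 1.89 ± 0.516 FPKM in vector and 1.88 ± 0.128 in OE libraries. All 6 receptor subunits were kept, and none passed with group alone or with the block, where 0 also had an unadjusted p under 0.05 in either fit by limma. Their log2 differences ran from -0.13 (IFNGR1, a chain of the interferon gamma receptor) to 0.11 (IFNLR1, a chain of the interferon lambda receptor), with a median of -0.04.

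Among the signal transducers IRF9 and IRF7 rose with the block. IRF9, the DNA-binding subunit of ISGF3, read 1.32, 2.13 and 1.47 FPKM in vector libraries 1, 2 and 3 and 3.97, 7.20 and 4.32 FPKM in OE libraries. The groups did not overlap (log2 difference 1.20, block SE 0.12, limma, adjusted p = 0.00569; 1.0 with group alone). IRF9 shares 1838 of its 3794 exon bases with the gene AL136295.5, so its value is uncertain. IRF7 read 8.12, 6.44 and 6.64 FPKM in vector and 16.7, 13.0 and 16.0 FPKM in OE libraries, again without overlap (1.01, block SE 0.10, limma, adjusted p = 0.00569; 1.0 with group alone). The median over the 10 transducers was 0.16, and the kinase JAK2 had the lowest difference (-0.22).

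The 7 feedback inhibitors kept had a median of -0.01. USP18, a protease that removes ISG15 and dampens receptor signalling, read 5.92, 6.31 and 6.17 FPKM in vector and 10.2, 8.42 and 8.21 FPKM in OE libraries. Its groups did not overlap, and it did not pass in either fit (log2 difference 0.47, limma, adjusted p = 1.0 with group alone and 0.285 with the block). SOCS3, an inhibitor of JAK kinases, had the lowest difference of the list (-0.16).

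Of the 43 kept type I interferon effectors, the antiviral genes that belong to the same target class as IFI6 and IFI27, 40 were higher and 3 lower on average, with a median of 0.19. Of all genes kept, 7006 of 12064 were higher. The OE libraries lay above all vector libraries for 7 of 43, against 2.5% of all genes, and below for 0, against 0.845%. OAS2, an antiviral oligoadenylate synthetase, alone rose with the block. It read 5.95, 17.7 and 7.85 FPKM in vector and 12.1, 30.5 and 21.5 FPKM in OE libraries, which overlap between the groups and differ in every pair (log2 difference 1.005, block SE 0.12, limma, adjusted p = 0.0167; 1.0 with group alone). DDX60, a helicase of the antiviral response, had the lowest difference (-0.15), with 18.2, 160 and 31.9 FPKM in vector and 18.2, 120 and 30.9 FPKM in OE libraries. In OAS2 and DDX60 library 2 was the highest of each group, as in IFI27L1 and IFI27L2 and unlike IFI6 and IFI27.

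Of 20 listed genes typical of interferon gamma, 10 were kept, and these act mainly in antigen presentation. CXCL9, CXCL10, CXCL11, CIITA, CD74, HLA-DRA, IDO1, GBP2, GBP4 and GBP5 fell under the filter, and their mean differences went both ways. All 10 kept genes were higher on average, against 7006 of all 12064. By limma 0 of them passed in either fit (0 with an unadjusted p under 0.05 with group alone, 6 with the block). The median of the 10 kept genes was 0.31. HLA-B, a class I antigen-presenting molecule, had the highest difference (0.78). It read 145, 413 and 146 FPKM in vector and 403, 526 and 209 FPKM in OE libraries. TAP2, a subunit of the peptide transporter, had the lowest (0.12). TAP2 shares 2064 of its 6390 exon bases with the gene AL669918.1. HLA-B shares 542 of its 3051 with AL671883.2 on the opposite strand and 35 with HLA-C. The values of TAP2 and HLA-B are therefore uncertain.

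**Figure D4:**
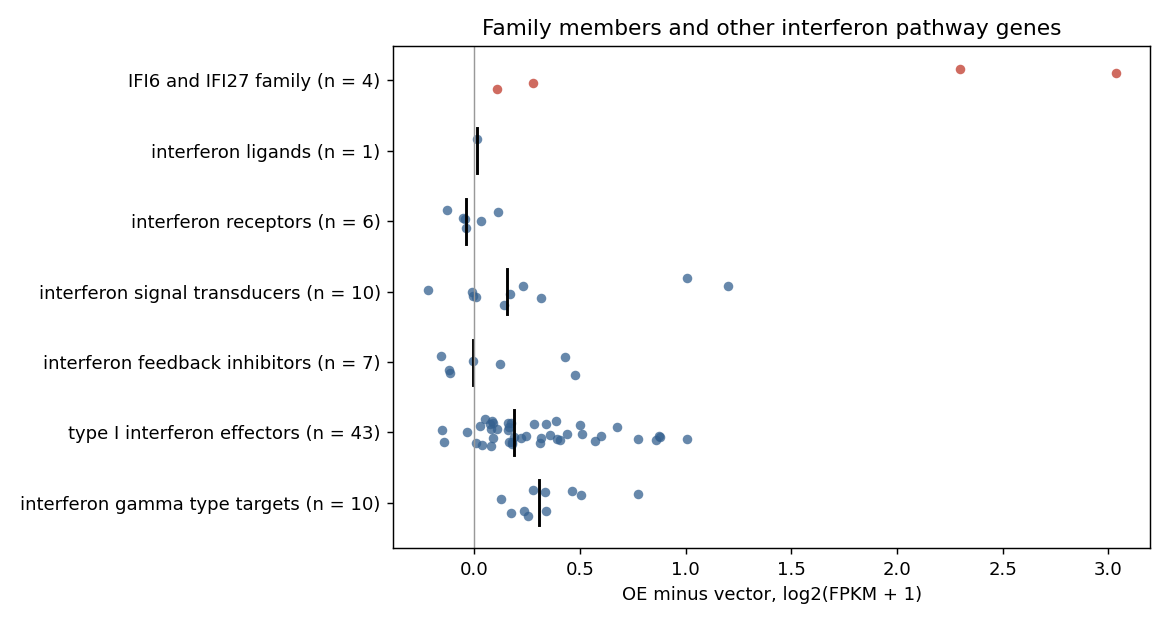
OE minus vector difference in log2(FPKM + 1) per gene, for the 4 family members (red) and the kept genes of 6 interferon lists (blue), with a black bar at the median of each list and the number of genes beside its name. IFI6 and IFI27 lie at 2.30 and 3.04, and every other point lies between -0.22 and 1.20.

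Matches to the ISRE core were found on 3 of the 6 interferon lists. Of the 34 kept effectors with a promoter sequence, 21 held at least 1 match and 10 at least 2, and 2 held at least 3 like IFI6. At least 1 match was held by 4 of 8 interferon gamma targets and 1 of 5 feedback inhibitors with a promoter sequence, and by 0 of 6 signal transducers, 0 of 5 receptors and 0 of 1 ligand. Not every kept gene of these lists had a promoter sequence.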

How the data were processed

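The authors deposited 1 table of FPKM with 1 column per library. Per the submitters' processing notes, HISAT2 and GRCh38 were used; the counting tool, annotation and use of strand: not given in the sources used here. Per the labels' protocols, mRNA was purified from TRIzol-extracted RNA. Depth is unknown, since the low FPKM values gave no whole-read steps.

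Members and lists were chosen with earlier results of these data known. Loci with at least 1 FPKM in at least 3 libraries (12064) were fitted as log2(FPKM + 1) in limma 3.58.1 (R 4.3.3; eBayes, trended prior, 2-sided, Benjamini-Hochberg over all genes, threshold 0.05), checked on simulated data. The numbers pair the libraries by their correlations alone (limit 0.1); whether they were separate cultures is not stated, so a p-value may reflect technical spread alone. Named genes were the members, MYBL1, kept genes within 100 kb and the 5 most alike per member. Per interferon list those called or at its ends were named, and also the interferon gamma targets under the filter. The markers named, XAF1, and which alike genes are given values, were chosen after values were seen. All 19974 Ensembl identifiers matched GENCODE release 29. The 4 members matched RefSeq promoters by symbol. A planned comparison of proteins was not made. Alternatives were another pseudocount, filters, scalings (TPM, quantile, and a trimmed mean, TMM, computed directly), no trend, the block and left-out libraries.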

Additional observations from a re-analysis of the deposited data

How the results depend on the processing

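The log2 differences of IFI6 and IFI27 kept their sign and moved by less than the spread between libraries, from 2.03 to 2.50 and from 2.70 to 3.49, with another pseudocount, under 3 scalings, without each library and without each pair. The block, the filters and the trend cannot change these differences. That of IFI27L2 stayed within 0.03 to 0.65, and that of IFI27L1 ran from -0.052 to 0.37 when 1 library was left out and was -0.012 with the block once both libraries numbered 1 were dropped. The pseudocount, the filters and the 3 scalings moved the median difference of all genes by less than 0.1; it was not computed for the others. With group alone, limma called 0 genes in each setting, apart from 1 gene without vector library 1 and 1 without OE library 2, and 0 interferon list genes.

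With the replicate block, 12 genes were called, 3 of them on the interferon lists. The block with another choice, added after seeing the data, gave 10 and 3 with a pseudocount of 0.1, 23 and 6 with a mean FPKM of at least 5, 11 and 3 under TPM, 12 and 3 under TMM, 11 and 3 under quantile scaling, 9 and 2 without a trend, and 0 and 0 without a filter. Without replicate 1, 2 or 3 of both groups, the block fit called 14, 148 and 22 genes, of them 3, 17 and 3 on the lists, with few residual degrees of freedom. Replicate number was called for 3389 genes without a filter and for 3663 (without vector library 2) to 6174 when 1 library was left out, against 5605. Read depth is unknown, so no counting error can be given.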

Other observations

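The presence of the ISRE core (GAAA, any 2 bases, GAAA) before the start was set beside the difference between OE and vector libraries for genes outside the family, as a description. The 8597 kept genes with a promoter sequence and no match had a median log2 difference of 0.03 (-1.49 to 2.94), and 58.5% of them were higher in OE libraries. The 291 with at least 1 match had a median of 0.04 (-0.47 to 0.88), and 61.2% were higher. The 30 with at least 2 matches, which are among the 291, had 0.06, and 21 of 30 were higher. Among the type I interferon effectors, the 21 with a match had a median of 0.24 (-0.15 to 0.88) and the 13 without had 0.18 (0.07 to 0.77). The highest value in any of these sets of effectors, 0.88, was below those of IFI6 (2.30) and IFI27 (3.04). OAS2, the kept effector with the largest difference (1.005), is in neither set of effectors. Whether these sets differ was not tested.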
